A study of Rattus norvegicus with 6 samples.

Results

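The transcripts of 10 genes of cholinergic transmission were examined in spinal cord RNA-seq: *Chat*, *Slc18a3*, *Slc5a7*, *Ache*, the muscarinic receptor genes *Chrm1*, *Chrm2* and *Chrm3*, and the nicotinic subunit genes *Chrna4*, *Chrna7* and *Chrnb2*. They were chosen by gene symbol, and each matched 1 of the 22050 genes of the deposited table. There were 3 samples from sham rats and 3 from SNI-NP rats, and the labels do not say whether each came from a single rat. SNI, spared nerve injury, is a rat model of neuropathic pain in which the tibial and common peroneal branches of the sciatic nerve are damaged and the sural branch stays intact, and sham rats had the surgery without the injury. All were male Sprague–Dawley rats aged 8 to 10 weeks, with no transgene or drug in either group. The side, cord segment and time after surgery of the sequenced tissue are not given in the sources used here, and p-values measure the spread between these samples.

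Acetylcholine is the transmitter of spinal motor neurons and of some spinal interneurons. Choline enters the nerve terminal through the choline transporter, is joined to an acetyl group by choline acetyltransferase, and is packed into vesicles by the vesicular acetylcholine transporter. Released acetylcholine acts on muscarinic receptors, which work through G proteins, and on nicotinic receptors, which are ion channels of 5 subunits, until acetylcholinesterase splits it. In the dorsal horn of the spinal cord, cholinergic signalling is known to dampen pain.

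The library totals lay between 16670760 and 18151156 counts, and a count of 0 allowed at most 0.167 to 0.18 CPM (a gene's counts per 1000000 counts of its library, corrected for library composition by TMM). *Prx*, a protein of peripheral nerve myelin, had 4032 to 4639 CPM in the sham and 4669 to 6419 CPM in the SNI-NP libraries although the samples were labelled spinal cord. Libraries differed in the level of cell type markers. The 8 markers of dorsal root ganglion neurons, all detected, summed to 368, 739 and 855 CPM in sham 1, 2 and 3, and to 78.4, 1164 and 845 CPM in SNI-NP 1, 2 and 3. The 4 markers of spinal inhibitory neurons (*Gad1*, *Gad2*, *Slc32a1* and *Slc6a5*) summed to 410, 131 and 287 CPM in the sham and to 245, 158 and 154 CPM in the SNI-NP libraries. SNI-NP 1 was thus lowest in ganglion markers. In inhibitory neuron markers sham 1 was highest, and sham 2 was lowest but near SNI-NP 2 and 3. For some of the results that rest on these libraries, values without them are also given. In whole tissue, fewer cells of a type and less RNA per cell cannot be told apart.

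All 10 genes passed the filter on low counts. None passed an adjusted p under 0.05 in edgeR's quasi-likelihood test, and neither did any of the 14426 genes tested (0%). By DESeq2, 194 of 17466 genes passed, *Chrm2* among them (adjusted p = 0.0399), and by limma on FPKM 2 genes passed, none of the 10. At an unadjusted p under 0.05, *Chrm2* was lower in SNI-NP rats and none of the 10 was higher, against 5.94% of all genes tested lower and 4.91% higher. The SNI-NP libraries lay below all 3 sham libraries for *Chrm2* and *Chrm3*, and above them for none of the 10, where 8.15% of all genes tested lay below and 10.4% above. The log2 fold change was below 0 for 9 of the 10, with a median of −0.46, while 49.1% of all genes tested were below 0 and their median was 0.01. Also below 0 were 100% of the inhibitory neuron markers (median −0.52) and of the 2 glutamatergic neuron markers tested (median −0.53). So were 85.7% of astrocyte, 75% of general neuron, 71.4% of oligodendrocyte (median −0.44) and 71.4% of microglia markers (median −0.05). The share was 50% for motor neuron markers and 0% for ganglion neuron, Schwann cell, skeletal muscle and blood markers. For the ganglion markers the median was only 0.06. Their mean log2 level was 5.06 in the sham and 4.53 in the SNI-NP group, with overlap and with SNI-NP 1 lowest at 1.98. The levels of all 10 in each library are plotted by group.

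**Figure D1:**
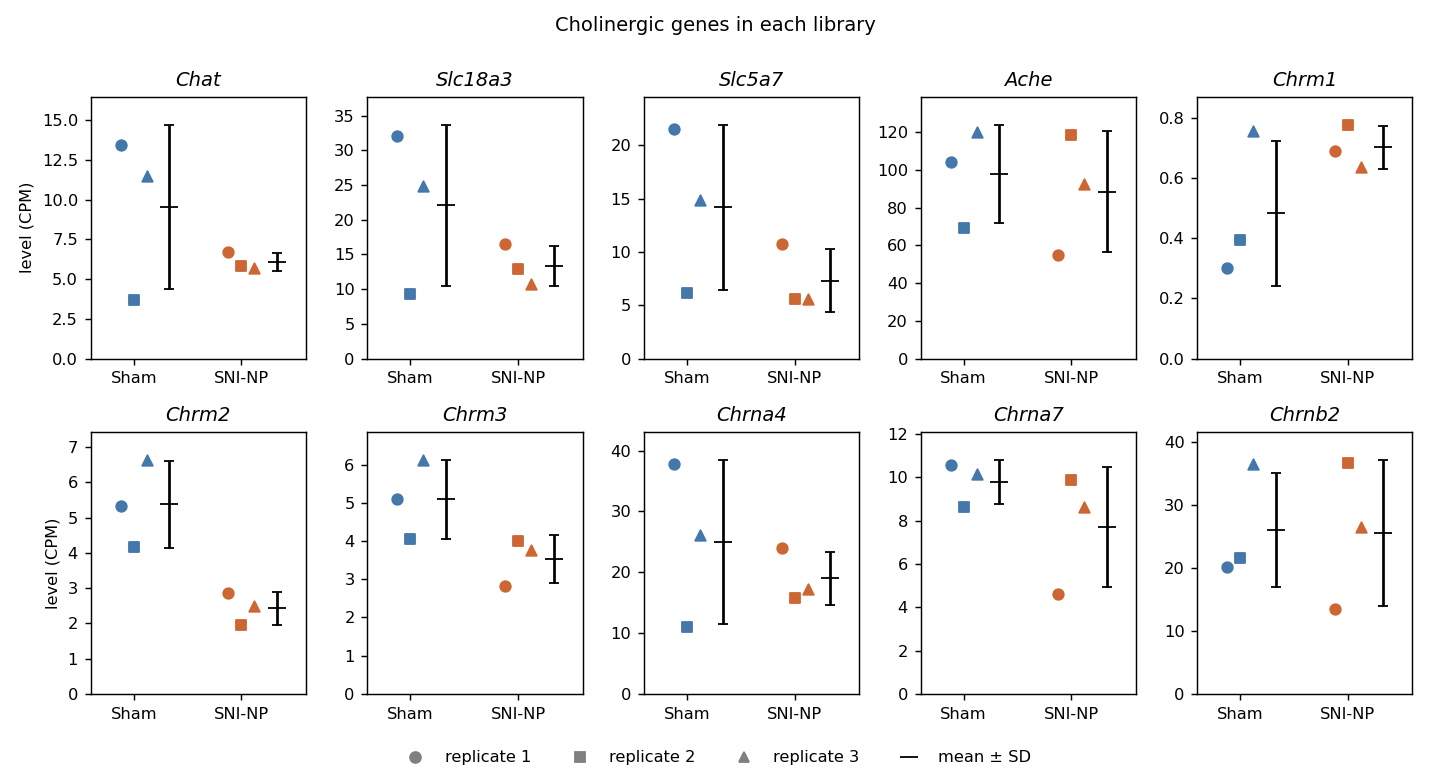
Level of each of the 10 genes in CPM (linear axes starting at 0) in the 3 sham and 3 SNI-NP libraries, with the replicate number as the marker shape and the group mean ± SD beside the points. The groups are separate for *Chrm2* and *Chrm3*, the sham 2 library is the lowest for *Chat*, *Slc18a3* and *Chrna4*, and the SNI-NP 1 library is the lowest for *Ache*, *Chrm3*, *Chrna7* and *Chrnb2*.

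The 3 genes that supply acetylcholine followed nearly the same pattern over the 6 libraries, so the 250 bases upstream of their starts are shown, as given by RefSeq on assembly GRCr8. All 10 genes matched a RefSeq promoter. *Chat* (chr16:7723417-7723666, minus strand) and *Slc18a3* (chr16:7722815-7723064, minus strand) are neighbours: their starts lie 602 bases apart on the same strand, since *Slc18a3* is nested in the *Chat* locus, and reads from a stretch that both transcripts hold could be counted for either. *Slc5a7* is on another chromosome (chr9:7953510-7953759, minus strand). Capitals mark matches on either strand to TGACGT (part of a cAMP response element, ACGTCA when read on the opposite strand), GGGCGG (a GC box, CCGCCC on the opposite strand) and TATAAA (a core promoter element).
*Chat* promoter: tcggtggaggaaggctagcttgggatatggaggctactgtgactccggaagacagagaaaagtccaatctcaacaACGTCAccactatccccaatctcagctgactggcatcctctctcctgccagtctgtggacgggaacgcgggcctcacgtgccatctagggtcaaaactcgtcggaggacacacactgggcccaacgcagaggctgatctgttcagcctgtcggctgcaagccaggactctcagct
*Slc18a3* promoter: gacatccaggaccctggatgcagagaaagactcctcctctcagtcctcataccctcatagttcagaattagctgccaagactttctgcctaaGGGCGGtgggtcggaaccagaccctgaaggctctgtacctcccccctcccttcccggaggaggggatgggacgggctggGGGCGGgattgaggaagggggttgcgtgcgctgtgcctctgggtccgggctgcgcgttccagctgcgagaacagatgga
*Slc5a7* promoter: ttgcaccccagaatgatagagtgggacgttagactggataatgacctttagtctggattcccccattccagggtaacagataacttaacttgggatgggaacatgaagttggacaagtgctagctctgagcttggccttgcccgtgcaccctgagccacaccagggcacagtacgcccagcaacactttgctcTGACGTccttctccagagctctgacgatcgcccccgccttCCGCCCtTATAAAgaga
TGACGT was found 175 bases before the start of *Chat* and 57 bases before that of *Slc5a7*, and in 6.95% of 33469 promoters of this length. GGGCGG was found in the windows of *Slc18a3* and *Slc5a7* and of 8 of the 10 genes in all, and in 30.5% of promoters. TATAAA was found 10 bases before the start of *Slc5a7* alone, against 12.9% of promoters. The stretch TTCAGCACC, the core of the element bound by the neuronal repressor REST, was in none of the 10 windows and in 0.305% of promoters. These are letter matches, and no binding was measured.

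*Chat*, choline acetyltransferase, was measured at 13.4, 3.66 and 11.5 CPM in sham 1, 2 and 3 and at 6.73, 5.83 and 5.68 CPM in SNI-NP 1, 2 and 3. Sham 1 and 3 were above all SNI-NP libraries and sham 2 was below all of them, so the groups overlapped. The means were 9.54 ± 5.18 and 6.08 ± 0.567 CPM (SD, n = 3 each), a log2 fold change of −0.65 (SE 0.43, edgeR adjusted p = 0.585), with a 95% interval from −1.66 to 0.36.

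*Slc18a3*, the vesicular acetylcholine transporter, had 32.0, 9.3 and 24.9 CPM in the sham and 16.5, 12.8 and 10.7 CPM in the SNI-NP libraries. The order of the libraries resembled that of *Chat*, again with sham 2 lowest. Its log2 fold change was −0.72 (SE 0.41, edgeR adjusted p = 0.537), with a 95% interval from −1.69 to 0.25.

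*Slc5a7*, the high-affinity choline transporter, had 21.6, 6.14 and 14.9 CPM in the sham and 10.8, 5.55 and 5.62 CPM in the SNI-NP libraries. Sham 2 lay here among the SNI-NP libraries and not below them. The log2 fold change was −0.96 (SE 0.47, edgeR unadjusted p = 0.0782, adjusted p = 0.495), with a 95% interval from −2.05 to 0.14.

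The spread of the supply genes lay mostly within the sham group, where *Chat*, *Slc18a3* and *Slc5a7* each differed more than 3-fold between sham 1 and sham 2. Without sham 2, all 3 passed an unadjusted p under 0.05, as did 2134 of the 14593 genes tested. The log2 fold changes were −1.04 for *Chat*, −1.09 for *Slc18a3* and −1.32 for *Slc5a7*, and none of the 3 passed an adjusted p. Without sham 1, where 908 of 14616 genes passed an unadjusted p under 0.05, they were −0.32, −0.36 and −0.54, and none of the 3 passed. Within a library their proportions varied less: the count of *Chat* was 0.394 to 0.463 of that of *Slc18a3* in the sham and 0.408 to 0.53 in the SNI-NP libraries. The count of *Slc5a7* was 0.598 to 0.674 of that of *Slc18a3* in the sham libraries and 0.652, 0.433 and 0.524 of it in SNI-NP 1, 2 and 3.

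The level of the supply genes varied with that of the inhibitory neuron markers. The mean log2 CPM of the astrocyte and of the oligodendrocyte markers was also highest in sham 1 and lowest in sham 2. Not every gene of these lists followed, since *S100b* (astrocytes) and *Mbp* (oligodendrocytes) were highest in SNI-NP 1. Microglia markers ran the other way, with a summed level of 295 CPM in sham 1 and 420 CPM in sham 2. *Mog*, an oligodendrocyte myelin protein, had 126, 41 and 86.7 CPM in the sham and 68.9, 51.6 and 44.6 CPM in the SNI-NP libraries, and *Aldh1l1*, an astrocyte enzyme, had 25.5, 8.84 and 16.6 against 13.7, 11.5 and 9.04 CPM. The part of either cell type in the supply gene values was not tested. *Slc18a3* had 0.141, 0.142 and 0.166 counts for each count of *Slc6a5*, the glycine transporter of inhibitory neurons, in the sham libraries, and 0.132, 0.152 and 0.138 in the SNI-NP libraries, and the groups overlapped. Set against the mean log2 level of the 4 inhibitory neuron genes in the same library, the difference between the groups was 0.03 on the log2 scale for *Chat* and −0.09 for *Slc18a3*, with overlapping groups. For *Slc5a7* this difference was −0.37, with all 3 SNI-NP libraries below all 3 sham libraries (exact permutation test, two-sided, p = 0.1, the smallest that 3 against 3 can give, and 0.633 after Benjamini-Hochberg adjustment over 19 ratios). With the inhibitory neuron level as a covariate in edgeR, the log2 fold changes were 0.05 for *Chat*, −0.06 for *Slc18a3* and −0.28 for *Slc5a7*. With the ganglion neuron level as a covariate they were −0.69, −0.80 and −1.13. Both covariates were added after seeing the data, and glial levels were not fitted. The inhibitory neuron level was itself lower in SNI-NP rats, by 0.48 on the log2 scale with overlapping groups. A gene that follows it moves towards 0 in such a fit, so the fit is no test of a cause.

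**Figure D2:**
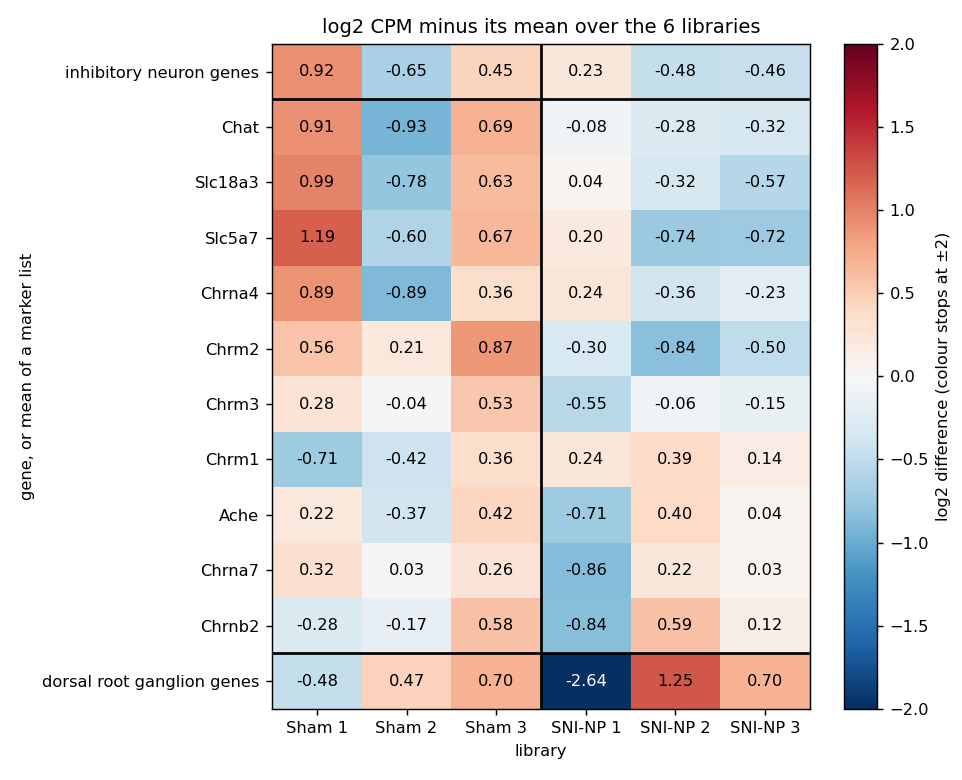
Heat map of log2 CPM minus its mean over the 6 libraries (columns) for the 10 genes (rows), with the means of the inhibitory neuron list above and the dorsal root ganglion list below them, red for higher and blue for lower. *Slc18a3* follows the inhibitory neuron row, from 0.99 in sham 1 to −0.78 in sham 2, and the ganglion row is at −2.64 in SNI-NP 1.

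*Ache*, acetylcholinesterase, was the most abundant of the 10, with 104, 69.2 and 120 CPM in sham 1, 2 and 3 and 54.7, 119 and 92.5 CPM in SNI-NP 1, 2 and 3. The highest and the lowest libraries of both groups interleaved. The means were 97.9 ± 26.2 and 88.6 ± 32.1 CPM (SD, n = 3 each), and the log2 fold change was −0.14 (SE 0.30, edgeR adjusted p = 0.88), with a 95% interval from −0.85 to 0.57. Without SNI-NP 1, the library poor in ganglion markers, it was 0.11.

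Among the muscarinic receptors, *Chrm2* encodes the M2 receptor, which couples to inhibitory G proteins and serves as an autoreceptor on cholinergic terminals. It was the single member of the 10 past an unadjusted p under 0.05, so its promoter is shown (250 bases, chr4:65982200-65982449, plus strand, RefSeq, GRCr8), with a GC box on the opposite strand in capitals, 194 bases before the start.
*Chrm2* promoter: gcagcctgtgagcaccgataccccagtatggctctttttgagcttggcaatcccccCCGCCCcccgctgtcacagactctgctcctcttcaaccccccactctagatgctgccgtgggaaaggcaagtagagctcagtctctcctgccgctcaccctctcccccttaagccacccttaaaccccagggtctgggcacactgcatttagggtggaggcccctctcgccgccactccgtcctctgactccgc
*Chrm2* had 5.34, 4.17 and 6.64 CPM in sham 1, 2 and 3 and 2.88, 1.94 and 2.49 CPM in SNI-NP 1, 2 and 3, from 35 to 114 counts a library. Each SNI-NP library was below each sham library, sham 2 included. The means were 5.38 ± 1.23 and 2.44 ± 0.468 CPM (SD, n = 3 each), a level 2.21-fold lower in SNI-NP rats by the fit. The log2 fold change was −1.14 (SE 0.27, edgeR unadjusted p = 0.00358, adjusted p = 0.336), with a 95% interval from −1.78 to −0.51, and *Chrm2* ranked 153 of 14426 genes by p. Its log2 fold change was −1.16 without sham 1, −1.29 without sham 2 and −1.28 without SNI-NP 1, so the direction did not rest on any of these libraries. With the inhibitory neuron level as a covariate it was −0.97 (edgeR unadjusted p = 0.00959). As a ratio to the inhibitory neuron genes of the same library, the difference was −0.66 on the log2 scale, and the groups overlapped (exact permutation test, two-sided, p = 0.2, and 0.633 after Benjamini-Hochberg adjustment over 19 ratios).

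*Chrm3*, the M3 receptor, which couples to Gq and phospholipase C, had 5.1, 4.06 and 6.11 CPM in the sham and 2.82, 4 and 3.77 CPM in the SNI-NP libraries. The groups did not overlap, but the lowest sham and the highest SNI-NP library were nearly level, with 72 counts in each. The log2 fold change was −0.53 (SE 0.25, edgeR unadjusted p = 0.0717, adjusted p = 0.487), with a 95% interval from −1.11 to 0.06. Without SNI-NP 1, the lowest library, it was −0.39.

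The counts of *Chrm2* and *Chrm3* were nearly equal in every sham library, with ratios of 1.05, 1.03 and 1.09. In SNI-NP 1, 2 and 3 the ratios were 1.02, 0.486 and 0.662, so SNI-NP 1 came close to the sham value and the other SNI-NP libraries did not. The log2 ratio was lower by 0.61 in SNI-NP rats with no overlap (exact permutation test, two-sided, p = 0.1, the smallest possible, and 0.633 after Benjamini-Hochberg adjustment over 19 ratios).

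*Chrm1*, the M1 receptor, was close to the limit of detection, with 5, 7 and 13 counts in the sham and 12, 14 and 11 counts in the SNI-NP libraries. These are 0.3 to 0.757 and 0.638 to 0.777 CPM, and the groups overlapped. Its log2 fold change of 0.53 (SE 0.48, edgeR adjusted p = 0.692) had a 95% interval from −0.60 to 1.66.

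Of the nicotinic subunits, *Chrna4* and *Chrnb2* together form the main high-affinity receptor of the central nervous system. *Chrna4* had 37.8, 10.9 and 26.1 CPM in sham 1, 2 and 3 and 24, 15.8 and 17.3 CPM in SNI-NP 1, 2 and 3. Sham 2 was the lowest library, as for *Chat* and *Slc18a3*. The log2 fold change was −0.39 (SE 0.41, edgeR adjusted p = 0.73), with a 95% interval from −1.35 to 0.56, and it was 0.27 with the inhibitory neuron level as a covariate. Against the inhibitory neuron genes of the same library, the level was higher in all 3 SNI-NP libraries, by 0.24 on the log2 scale (exact permutation test, two-sided, p = 0.1, the smallest possible, 0.633 after adjustment over the 19 ratios).

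*Chrnb2* had 20.1, 21.6 and 36.6 CPM in the sham and 13.5, 36.7 and 26.5 CPM in the SNI-NP libraries, with the groups overlapping throughout. Its means were 26.1 ± 9.09 and 25.6 ± 11.6 CPM (SD, n = 3 each), a log2 fold change of −0.03 (SE 0.38, edgeR adjusted p = 0.982) with a 95% interval from −0.91 to 0.85. The partner subunits did not keep a fixed proportion: *Chrnb2* had 0.532, 1.98 and 1.4 counts for each count of *Chrna4* in the sham libraries and 0.564, 2.33 and 1.53 in the SNI-NP libraries. In both groups replicate 1 was the low one. Those are the libraries with the fewest ganglion markers of their group, whose part in the ratio was not tested.

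*Chrna7*, which forms receptors of a single subunit type with high calcium permeability, had 10.6, 8.62 and 10.1 CPM in the sham and 4.6, 9.89 and 8.64 CPM in the SNI-NP libraries. Only SNI-NP 1 lay clearly below the other 5. The log2 fold change was −0.34 (SE 0.29, edgeR adjusted p = 0.662) with a 95% interval from −1.01 to 0.33, and −0.08 without SNI-NP 1.

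**Figure D3:**
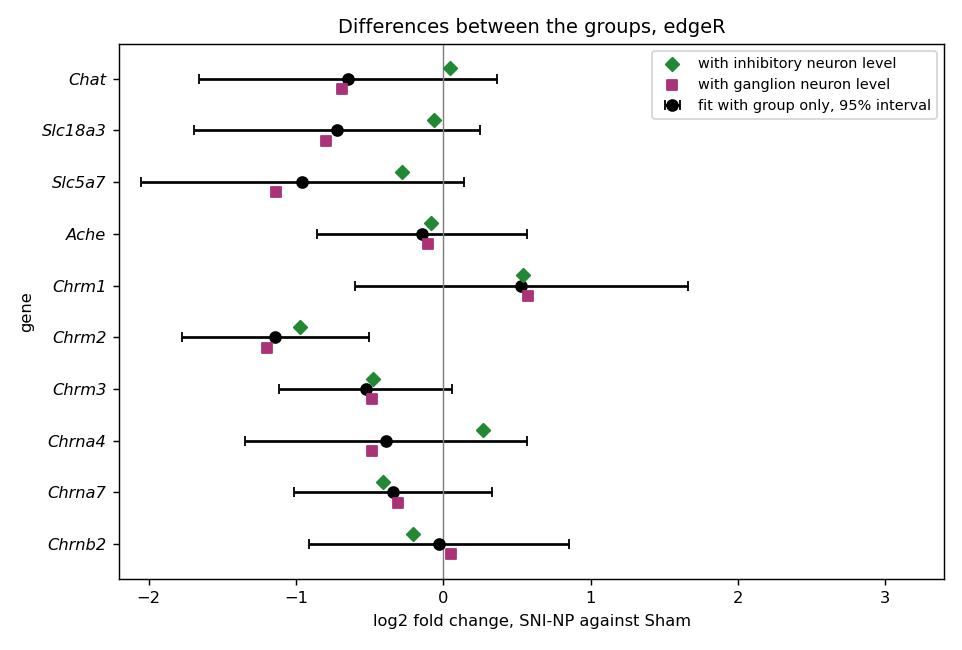
Log2 fold change of SNI-NP against sham rats for the 10 genes by edgeR, with the 95% interval of the fit with group as the single term (circles), and the estimates with the inhibitory neuron level (diamonds) or the ganglion neuron level (squares) as a covariate. The interval of *Chrm2*, from −1.78 to −0.51, is the only one of the 10 that leaves out 0. The supply genes lie nearer 0 with the inhibitory neuron level in the fit, a covariate added after they were seen to vary with it.

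Per length, on the FPKM scale (fragments scaled to transcript length and library size), the 10 genes formed an order with few clear steps. *Ache* had a mean level of 48.4 FPKM over the 6 libraries, and its lowest library was above the highest library of *Chrnb2*, the next gene, with 11.8 FPKM. *Slc18a3* (6.18 FPKM), *Chrna4* (4.92), *Chrna7* (3.19), *Chat* (3.16) and *Slc5a7* (2.32) followed, and the ranges of neighbours overlapped over the 6 libraries. *Chrm2* (1.79 FPKM) and *Chrm3* (1.21 FPKM) came next, separate within the sham libraries and overlapping within the SNI-NP libraries. *Chrm1*, with 0.333 FPKM, lay below every library of *Chrm3*. The length that the deposited count and FPKM imply for *Slc5a7* was 3076 bases in SNI-NP 2 and 4716 to 4890 bases in the other libraries, so its FPKM in SNI-NP 2 was raised against the rest. For *Chrna4* it was 4035 bases in SNI-NP 2 and 4431 to 4546 bases in the others. The length offsets used the median length of a gene over the libraries, so they did not correct for these differences. With them the log2 fold change was −0.82 for *Slc5a7* and −0.26 for *Chrna4*.

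**Figure D4:**
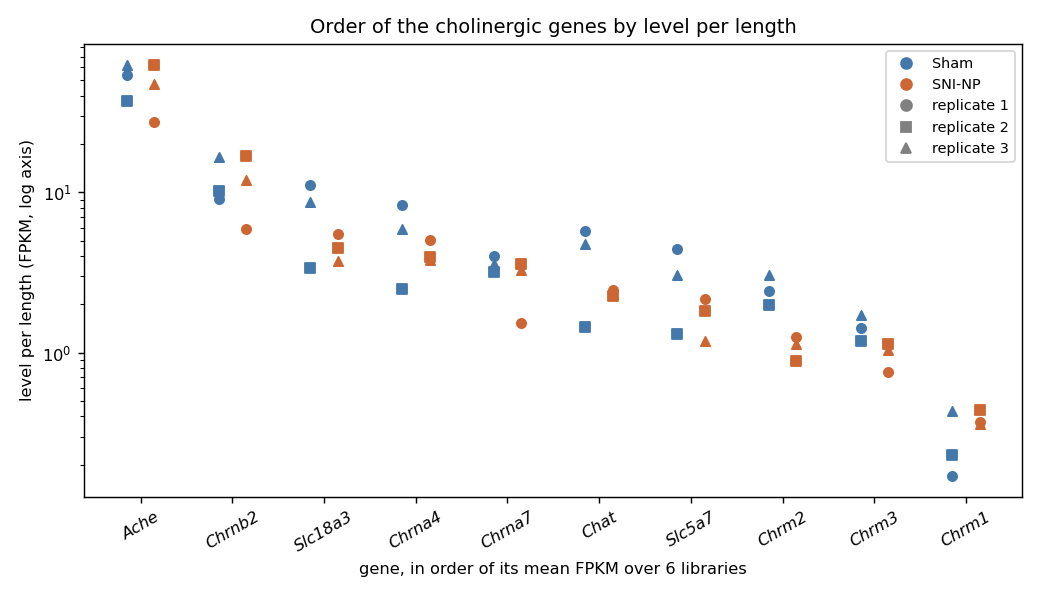
Level of the 10 genes in FPKM on a log axis in each library, ordered by the mean over the 6 libraries, from *Ache* at 48.4 to *Chrm1* at 0.333 FPKM. The steps from *Ache* to *Chrnb2* and from *Chrm3* to *Chrm1* are the ones at which no library overlaps.

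The motor neurons, a main cholinergic cell type of the cord, were followed with 15 markers, of which 14 were in the table, 10 passed the filter and *Tbx20* was at 0 in all libraries. Of these 10, 5 had a log2 fold change below 0 and 5 above 0, with a median of −0.06. Their summed level ran from 466 to 751 CPM in the sham and from 266 to 1088 CPM in the SNI-NP libraries. Most of that sum came from *Prph*, a neurofilament-like protein of peripheral neurons, and *Ret*, both also made by ganglion neurons and both lowest in SNI-NP 1. *Chodl*, a marker of fast motor neurons, had 28.6, 10.4 and 16.1 CPM in the sham and 14.6, 8.83 and 13 CPM in the SNI-NP libraries. *Esrrg*, a nuclear receptor of gamma motor neurons, had 22.2, 11.4 and 19.1 against 12.8, 5.89 and 9.16 CPM, and was the single motor neuron marker past an unadjusted p under 0.05 (log2 fold change −0.92, SE 0.34, edgeR adjusted p = 0.436). *Uts2* (−1.04, SE 0.60, edgeR adjusted p = 0.539) and *Esrrb* (−0.94, SE 0.58, edgeR adjusted p = 0.561) had overlapping groups and were lowest in sham 2. *Mmp9*, a metalloproteinase of fast motor neurons, had 7.2, 3.49 and 10.8 against 20.4, 12.9 and 7.42 CPM (log2 fold change 0.92, SE 0.48, edgeR adjusted p = 0.504). The summed blood markers, with 834, 494 and 1197 against 2615, 1312 and 1090 CPM, ranked the libraries in the same order. *Isl2* and *Prph* each had a log2 fold change of 0.40. *Isl2* was lowest in SNI-NP 1 (0.863 CPM) and highest in SNI-NP 2 (22.5 CPM), as were *Isl1* and the summed ganglion markers. The part of blood or ganglion cells in these values was not tested. The motor neuron transcription factor *Mnx1* had 9, 3 and 6 counts in the sham and 6, 2 and 0 counts in the SNI-NP libraries.

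The genes with the profile most like the mean of *Chat*, *Slc18a3* and *Slc5a7* over the 6 libraries were found by the root mean square difference of log2 levels centred on each gene's mean. These were *Pou3f3* (0.0905), a POU homeobox factor, *Cdk18* (0.0972), a kinase, *Kcnk9* (0.0984), a two-pore potassium channel, *Tuba8* (0.1), an alpha-tubulin, and *Nipal4* (0.103). Among the other 7 genes *Chrna4* was the nearest, at 0.208, while *Ache*, at 0.649, and *Chrnb2*, at 0.855, were far from it.

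The wider pathway was read from 7 lists with 50 genes, of which 49 were in the table and 46 were tested. Leaving out the 10 genes, 4 of 36 were lower and 2 higher at an unadjusted p under 0.05, where 5.94% of all genes tested were lower and 4.91% higher. None passed the adjusted p, and the median log2 fold change was −0.18, against 0.01 over all genes tested. In the supply list, *Slc44a1*, a choline transporter of many cell types, had means of 454 ± 23.3 and 499 ± 71.3 CPM (SD, n = 3 each) in the sham and the SNI-NP group. *Slc10a4*, a vesicle protein of cholinergic and monoaminergic terminals, had 9.67, 1.75 and 6.11 against 5.29, 3.39 and 3.42 CPM, lowest in sham 2 like *Chat*. In the breakdown list 0 of 4 genes passed, and *Prima1*, which anchors acetylcholinesterase in the membrane, had 34.4 ± 6.39 and 34.2 ± 0.347 CPM (SD, n = 3 each).

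The remaining muscarinic receptors were scarce. *Chrm4*, coupled to inhibitory G proteins like *Chrm2*, had 2.16, 1.3 and 2.1 against 0.863, 1.33 and 1.33 CPM (log2 fold change −0.65, SE 0.36, edgeR adjusted p = 0.524). *Chrm5* had 0.48, 0.789 and 0.349 against 1.21, 0.777 and 0.754 CPM (log2 fold change 0.75, SE 0.47, edgeR adjusted p = 0.563).

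Of the 12 genes of muscarinic signalling, 3 were lower and 1 was higher at an unadjusted p under 0.05 (5.94% and 4.91% of all genes tested), and none by the adjusted p. *Gnaq*, the G protein subunit through which M1, M3 and M5 act, had 26.4, 30.7 and 25 CPM in the sham and 19.8, 15 and 19.2 CPM in the SNI-NP libraries, with no overlap and sham 2 the highest (log2 fold change −0.60, SE 0.15, edgeR unadjusted p = 0.00519, adjusted p = 0.348). *Plcb1*, a phospholipase C that Gq activates, had 33.3, 24.1 and 29.5 against 22.9, 8.16 and 14.5 CPM (log2 fold change −0.93, SE 0.34, edgeR adjusted p = 0.436). *Plcb4*, another, had 30.5, 22.9 and 21.1 against 19, 7.94 and 11.8 CPM (log2 fold change −0.95, SE 0.31, edgeR adjusted p = 0.436). For these 3 genes each SNI-NP library was below each sham library, as for 8.15% of all genes tested. *Gnai2*, an inhibitory G protein subunit present in many cell types, was higher, with 419 ± 19.8 and 492 ± 17.6 CPM (SD, n = 3 each; edgeR adjusted p = 0.453), and *Rgs4*, which shortens G protein signals, had 204, 397 and 409 against 51.6, 592 and 378 CPM.

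**Figure D5:**
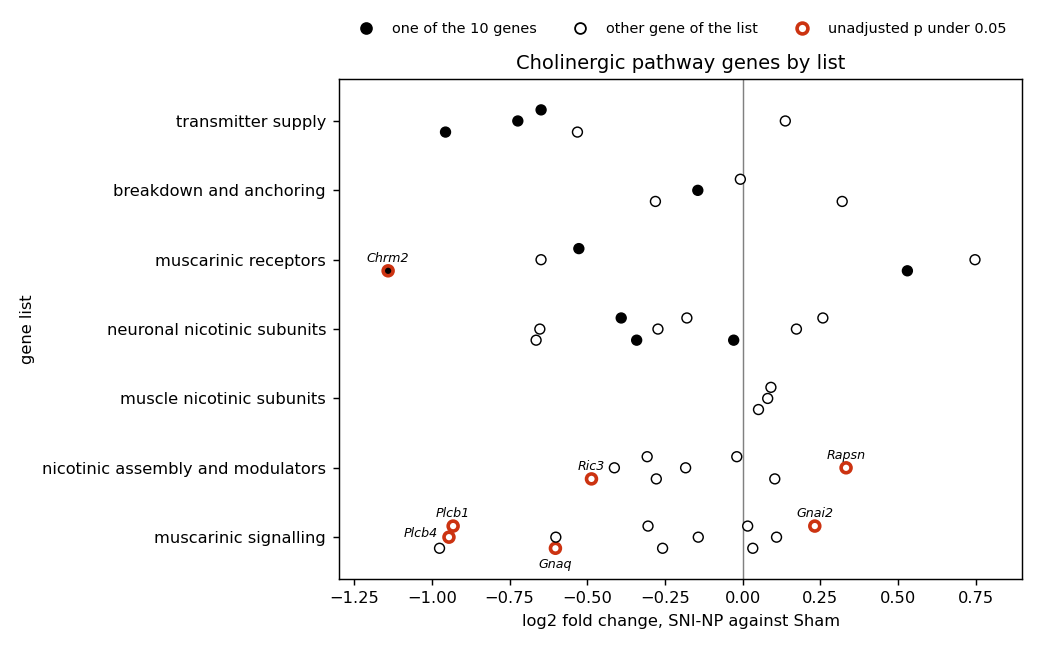
Log2 fold change (edgeR, SNI-NP against sham) of the 46 tested genes of the 7 cholinergic lists, 1 point a gene, with the 10 genes filled and a coloured ring around genes with an unadjusted p under 0.05. Ringed genes are *Chrm2*, *Ric3*, *Gnaq*, *Plcb1* and *Plcb4* on the lower side and *Rapsn* and *Gnai2* on the higher side.

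In the list of nicotinic assembly and modulators, 1 of 8 genes was lower and 1 higher at an unadjusted p under 0.05, against 5.94% and 4.91% of all genes tested. *Ric3*, a chaperone for nicotinic receptors that include alpha 7, had 22, 16.8 and 18.7 CPM in the sham and 10.8, 15.8 and 14.4 CPM in the SNI-NP libraries (log2 fold change −0.49, SE 0.18, edgeR adjusted p = 0.44). *Rapsn*, which clusters the muscle receptor at the neuromuscular junction, had 18, 19.5 and 16.1 against 24.6, 19.6 and 23.2 CPM (log2 fold change 0.33, SE 0.14, edgeR adjusted p = 0.458). The most abundant of the list were *Lynx1*, a membrane-bound modulator of nicotinic receptors, with 200 ± 57 and 161 ± 27.8 CPM (SD, n = 3 each), and *Tmem35a*, an assembly chaperone, with 87.1 ± 19 and 76.7 ± 8.59 CPM.

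None of the 9 neuronal nicotinic subunits tested passed an unadjusted p under 0.05. *Chrna3*, the alpha subunit typical of peripheral ganglia, had 12.2, 19.6 and 33.9 CPM in the sham and 1.84, 48.1 and 28.6 CPM in the SNI-NP libraries, an order of libraries like that of the ganglion markers. *Chrna6*, *Chrnb3* and *Chrnb4* were also lowest in SNI-NP 1. *Chrna6* had 0.23 CPM there and at least 3.36 CPM in the other libraries, *Chrnb3* 5.46 against at least 11.6 CPM, and *Chrnb4* 0.748 against at least 1.92 CPM. *Chrna9* was at 0 in all 6 libraries. Of the muscle receptor, *Chrna1* had 0.99 to 1.97 CPM in the sham and 1.17 to 2.09 CPM in the SNI-NP libraries, and *Chrne* had 1.8 to 4.31 and 0.633 to 6.33 CPM. The summed level of 5 skeletal muscle markers, all detected, ran from 9.97 to 63.1 CPM in the sham and from 8.66 to 331 CPM in the SNI-NP libraries, and its part in these values was not tested.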

How the data were processed

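For the 3 sham and 3 SNI-NP samples, RNA was extracted with TRIzol from rat spinal cord tissue, and libraries were made with the NEBNext Ultra RNA kit. Per the submitters' processing notes FastQC, STAR and HTSeq were used, and the methods give the genome as Rat6 with uniquely mapped reads kept. Versions, annotation and strand setting are not given in the sources used here. For every gene the authors deposited an estimated count, which is not normalized, and an FPKM value, scaled to gene length and library size.

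Estimated counts were rounded (all counts of the 10 genes were whole). In edgeR 4.0.16 (R 4.3.3), genes passing filterByExpr were scaled by TMM and tested with the quasi-likelihood test and Benjamini-Hochberg adjustment over 14426 genes, with group as the single term. SE is the log2 fold change divided by the root of F. The common biological coefficient of variation was 0.223, and at most 0.167 to 0.18 CPM was allowed by a count of 0 (3 counts, counting error only). The sample labels gave the groups. The tests were checked on simulated counts with planted changes, drawn independently for each gene. No shift shared by many genes of a library was simulated, so the check does not cover the marker differences between these libraries.

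The 10 genes and all lists were chosen with earlier results of these data known. Named are the 10 genes, list genes with an unadjusted p under 0.05, the 2 most abundant of each list by FPKM, and the 5 genes nearest to the supply genes in profile. Genes of other lists were singled out after their values were seen: *Slc10a4*, *Chrm4*, *Chrm5*, *Chrna6*, *Chrna9*, *Chrnb3*, *Chrnb4*, *Chodl*, *Esrrg*, *Esrrb*, *Uts2*, *Mnx1*, *Mmp9*, *Isl1*, *Isl2*, *Mog*, *Mbp*, *Aldh1l1*, *S100b*, *Prph*, *Ret*, *Prx* and *Slc6a5*. Alternatives were DESeq2 1.42.0, limma 3.58.1 on log2(FPKM + 0.1), other scalings, filters and length offsets, a replicate block, leaving out each library, and, added after seeing the data, inhibitory or ganglion neuron level as a covariate. The labels give the same replicate numbers in both groups but no pairing, and the main test treated the samples as unpaired. A gene withheld from this text is not reported here.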

Additional observations from a re-analysis of the deposited data

How the results depend on the processing

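Under all 17 alternatives *Chrm2* was lower in SNI-NP rats with an unadjusted p under 0.05, its log2 fold change ran from −1.29 to −0.97, and its adjusted p from 0.0399 to 0.755. It passed the adjusted p with DESeq2 alone, where 1 of the 10 genes and 194 genes in all did, and none of the 10 passed under any other alternative. Over all genes, 2 passed with limma and 213 with the ganglion neuron level as a covariate, an alternative chosen after seeing the data, and 0 to 222 when 1 library was left out, 222 without SNI-NP 1 and 2 without sham 2. The count at an unadjusted p under 0.05 was 1565 of 14426 genes with all libraries. When 1 library was left out, it ran from 908 of 14616 without sham 1 to 2134 of 14593 without sham 2. It was 1019 without sham 3, 917 without SNI-NP 3 and 1907 without SNI-NP 1. Of the 10 genes, 1 to 6 passed an unadjusted p when 1 library was left out, 6 without sham 2 (*Chat*, *Slc18a3*, *Slc5a7*, *Chrm2*, *Chrm3* and *Chrna4*) and 2 without SNI-NP 1 (*Chrm2* and *Slc5a7*). The same 2 genes passed with DESeq2 and with the ganglion covariate, where 1710 of 17466 and 2241 of 14426 genes did. The causes of these differences were not tested. Among genes at an unadjusted p under 0.05, 54.8% were lower in SNI-NP rats, and 35.2% with length offsets.

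With the inhibitory neuron level as a covariate, also chosen after seeing the data, the sign turned for *Chat*, to 0.0452, and for *Chrna4*, to 0.27. With the ganglion covariate it turned for *Chrnb2*, to 0.0507. When 1 library was left out, *Chrna4* ran from −0.75 (without sham 2) to 0.0304 (without sham 1), *Ache* from −0.41 (without SNI-NP 2) to 0.11 (without SNI-NP 1), with 0.01 without sham 3, and *Chrnb2* from −0.38 (without SNI-NP 2) to 0.28 (without SNI-NP 1), with 0.27 without sham 3. The other 6 genes kept their sign throughout, and *Chrm1* was not tested where at least 10 counts in every library were asked.

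Whether samples with the same replicate number were paired is not known. Deviations from the group means of same-numbered libraries correlated at 0.21, −0.14 and 0.05, which cannot settle it. With the replicate block 2 of the 10 genes passed an unadjusted p (*Chrm2* and *Slc5a7*), 1319 of all genes did, and 0 passed the adjusted p. *Chrm1* had the fewest counts of the 10 genes, 5 to 14 a library.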

Other observations

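The main glutamate transporter of spinal excitatory neurons, *Slc17a6*, had 50.1, 34.8 and 50 CPM in the sham and 25.3, 26.8 and 27 CPM in the SNI-NP libraries (log2 fold change −0.77, SE 0.16, edgeR unadjusted p = 0.00164, adjusted p = 0.307). Each SNI-NP library was below each sham library, as for 8.15% of all genes tested. Of the 8 general neuron markers, 2 were lower at an unadjusted p under 0.05, against 5.94% of all genes tested. *Snap25*, a synaptic vesicle fusion protein, had 229 ± 64.8 and 146 ± 26.7 CPM, and *Map2*, a dendritic microtubule protein, had 227 ± 87.1 and 97 ± 52.9 CPM (SD, n = 3 each, edgeR adjusted p = 0.436 for both). None of the 4 inhibitory neuron markers passed an unadjusted p under 0.05, and their median log2 fold change was −0.52. Of the 7 astrocyte markers only *Slc1a2*, a glutamate uptake transporter, did, with 25.8 ± 12 and 12.3 ± 3.87 CPM (SD, n = 3 each, edgeR adjusted p = 0.436), and of the 7 oligodendrocyte and 7 microglia markers none did. Of the 4 blood markers, 3 were higher at an unadjusted p under 0.05, against 4.91% of all genes tested. Their summed level was 494 to 1197 CPM in the sham and 1090 to 2615 CPM in the SNI-NP libraries. *Prx*, the peripheral myelin protein, was higher at an unadjusted p under 0.05 (log2 fold change 0.36, SE 0.15, edgeR adjusted p = 0.458), and none of the 8 ganglion or 5 skeletal muscle markers passed. These genes were named after their values were seen.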
